A study of Homo sapiens with 4 samples.

Results

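Skipped microexons are the shortest internal exons of a gene that can be joined into some of its transcripts and left out of others. They were taken here as every exon of 30 bases or fewer listed as the included form of a skipped exon in any of 4 polyA RNA libraries of IMR-32, a neuroblastoma cell line with MYCN amplification. There were 476 such microexons in 420 genes, among 21819 skipped exons of every length, so 21343 were longer. Inclusion is the FPKM (fragments per length of transcript and per depth of library) of the included form as a percentage of the included plus the skipped form, and a form that a library did not list was set to 0. All cells were stably transduced with a doxycycline-inducible hairpin and were given doxycycline at 1 μg/mL for 48 h. The 2 groups compared were shControl (the control hairpin, genotype label WT) and shNeuroD1 (NeuroD1 knockdown), with 2 libraries each. The paper's supplementary material seems to name the same hairpin for both knockdown libraries, but the sample titles do not settle this. Those titles, shNeuroD1-1 and shNeuroD1-2, are also the paper's names for 2 different hairpins, though the shControl titles are numbered in the same way. If both libraries carry the same hairpin, an effect of NeuroD1 and one of the hairpin sequence cannot be told apart. If they carry different ones, a difference between hairpins cannot be told from one between libraries. Nothing stated that the libraries came from separate cultures, and p-values measure the spread between these libraries, which may be technical.

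Microexons are a feature of the nervous system, where many are included in neurons and skipped elsewhere. Their lengths are often divisible by 3, so that they add a few amino acids, frequently at the surface of a protein domain, without shifting the reading frame. SRRM4 and SRRM3 promote their inclusion, PTBP1 represses many of them, and RBFOX proteins act on others according to where they bind. NeuroD1 is a proneural transcription factor of the basic helix-loop-helix family.

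The sequences shown are of microexons that the results turn on, taken 5′ to 3′ from GENCODE 29 transcripts on GRCh38. Capitals mark the microexon and lower case the 15 bases on either side in the spliced transcript. The first set had higher inclusion in both shNeuroD1 libraries, apart from the RPL41 exon of 23 bases, which is given because the form of 18 bases lies within it. In the line of that form, the last 5 lower-case bases before the capitals belong to the exon of 23 bases and not to the form itself.
RPL41, 23 bases: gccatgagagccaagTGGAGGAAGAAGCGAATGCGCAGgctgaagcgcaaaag
RPL41, 18 bases: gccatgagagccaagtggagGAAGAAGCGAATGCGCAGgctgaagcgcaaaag
ERO1A: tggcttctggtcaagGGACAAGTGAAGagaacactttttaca
NRCAM: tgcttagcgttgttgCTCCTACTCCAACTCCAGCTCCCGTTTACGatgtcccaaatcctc
MPP3: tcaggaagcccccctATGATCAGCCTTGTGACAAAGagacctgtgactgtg
MACF1: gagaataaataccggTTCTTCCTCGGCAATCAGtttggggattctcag
MEF2D: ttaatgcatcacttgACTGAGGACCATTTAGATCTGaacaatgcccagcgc

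The second set had lower inclusion in both shNeuroD1 libraries.
CLSTN1: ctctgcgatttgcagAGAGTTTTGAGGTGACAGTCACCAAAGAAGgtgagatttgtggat
SLC38A10: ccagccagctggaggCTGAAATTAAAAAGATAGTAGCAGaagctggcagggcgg
CLTC: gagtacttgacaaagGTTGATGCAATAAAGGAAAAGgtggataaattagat

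The third set lies in genes of a list of known neural microexon hosts and is shown for its abundance.
KIF21A: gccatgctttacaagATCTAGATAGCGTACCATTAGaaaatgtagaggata
DCTN1, 15 bases: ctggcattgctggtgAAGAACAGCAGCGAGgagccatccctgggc
DCTN1, 21 bases: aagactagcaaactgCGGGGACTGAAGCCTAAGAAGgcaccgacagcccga
ANK3: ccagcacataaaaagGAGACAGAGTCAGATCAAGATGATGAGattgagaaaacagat
PTPRF: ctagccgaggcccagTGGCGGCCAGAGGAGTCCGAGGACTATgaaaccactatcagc

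The microexons were mostly short coding segments that kept the reading frame. Their median length was 24 bases, against 115 for the longer skipped exons, and 341 of 476 (71.6%) had a length divisible by 3, against 41.8% of the longer exons. The exon lay wholly within annotated coding sequence for 341 (71.6%), against 54.0% of the longer exons. Within coding sequence, 274 of the 341 (80.4%) were divisible by 3, against 48.0%. Of the rest, 26 lay in untranslated regions, 23 were partly coding, 25 belonged to non-coding transcripts and 61 matched no exon of their gene in GENCODE 29.

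**Figure D1:**
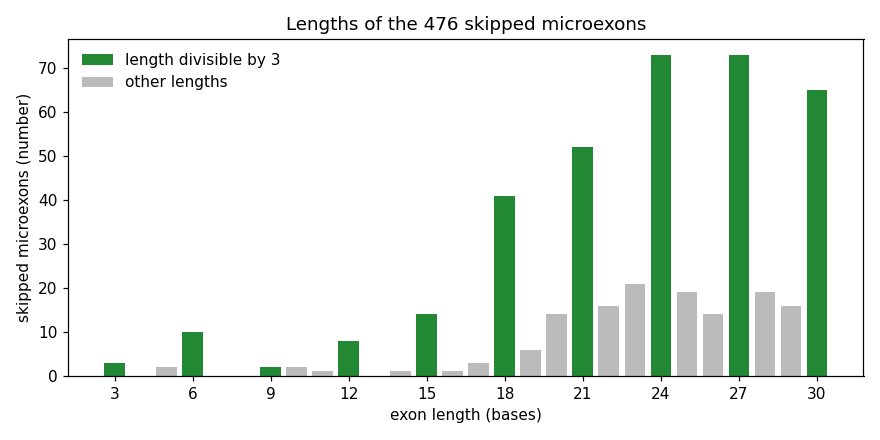
Number of skipped microexons (vertical axis) at each exon length in bases (horizontal axis), with lengths divisible by 3 in green and others in grey. Lengths of 24 and 27 bases held 73 microexons each and 30 bases held 65, while no length that is not divisible by 3 held more than 21.

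The introns beside the microexons had a median of 1722 bases upstream and 1647 downstream, against 2228 and 2064 for the longer exons. Median GC content was 45.8% for the 415 microexons with a sequence, against 48.9%. Most genes held a single microexon, whereas 48 held 2 or more (104 in all), with 4 in DCTN1, the large subunit of the motor adaptor dynactin. 20 microexons overlapped another one and so were not separate measurements. Motifs in the flanking introns were not analysed here.

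The knockdown was seen in the counts. NEUROD1 was at 419 and 414 CPM (counts scaled to a common library total) in shControl and at 63.7 and 58.2 CPM in shNeuroD1, which is -2.77 ± 0.05 on the log2 scale (SE of the edgeR fit, adjusted p = 8.6e-29). The libraries held 14665210 to 16482463 counts. HAND2, a factor of the sympathetic lineage, and MYCN were at 710 to 791 and 1945 to 2025 CPM over all libraries. TH and DBH, enzymes of catecholamine synthesis, were low. TH rose from 0.678 and 1.26 CPM in shControl to 5.78 and 5.19 CPM in shNeuroD1 (log2 fold change 2.48, edgeR adjusted p = 8.3e-09). DBH fell from 1.56 and 1.51 to 0.789 and 0.722 CPM (-1.01, edgeR adjusted p = 0.0342). HAND2 fell slightly (-0.13, edgeR adjusted p = 0.0038), and MYCN did not pass the test (-0.0073, edgeR adjusted p = 0.886). 5 fibroblast and Schwann cell markers summed to 39.96 and 41.6 CPM in shControl and to 26.3 and 26.3 CPM in shNeuroD1, most of it COL1A1 in every library. COL1A1 fell and COL3A1, LUM and S100B rose by edgeR's adjusted p, the last 3 to no more than 2.43 CPM, and their part in the results was not tested.

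Fewer microexons than longer exons stood near full inclusion. Of the 476, 402 had at least 1 form listed in every library, and 372 of these had a mean of at least 1 FPKM and were tested. The other 104 had a library with neither form (74) or too low a mean (30). Among the 372 were 35 whose skipped form no library listed, so that their inclusion could not differ between the groups. Among the 372, 107 (28.8%) were under 10% inclusion in both shControl libraries and 87 (23.4%) were over 90% in both, against 22.4% and 46.6% of the 16119 longer exons tested.

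In the shControl libraries the median inclusion of the tested microexons was 35.0% and 41.7%, and with shNeuroD1 it was 53.2% and 50.1%. The 2 groups did not overlap in this median. For the longer exons the medians were 93.4% and 92.9% in shControl and 94.3% and 94.6% in shNeuroD1, which also did not overlap but lay within 2 percentage points. The median over microexons of each one's own difference was 0.447 percentage points, against 0.0 for all 16491 exons tested, and it was 0.00571 to 0.0934 points with any 1 library left out. 103 of the 372 (27.7%) differed by less than 1 point. The mean difference was 5.15 points, against 0.504 for the longer exons. The median of the differences was thus far smaller than the distance between the medians of the groups.

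No microexon passed the test of the study's contrast. limma on the log2 ratio of the 2 forms, with p-values adjusted over the 16491 exons, called 0 of 372 higher and 0 lower at adjusted p under 0.05 and a difference of 10 points (0% of all exons in either direction), and the lowest adjusted p was 0.139. At an unadjusted limma p under 0.05 there were 45 microexons higher, or 12.1%, and 14 lower, or 3.76%. Over all exons tested the shares were 5.6% higher and 4.88% lower. Of the 14 lower, 9 differed by less than 1 point in inclusion, as did 4 of the 45 higher, since with 1 form at or near 0 the ratio follows the level of the other form alone.

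Microexons whose groups did not overlap lay mostly on the side of higher inclusion. 59 of the 372 (15.9%) were higher in both shNeuroD1 libraries than in either shControl library with a mean difference of at least 10 points, where 5.44% of all exons tested were. 18 (4.84%) were lower in both by the same rule, where 4.17% of all exons tested were. The share of microexons on the higher side was thus above that of all exons, and the share on the lower side was near it. The 59 lay in 57 genes and the 18 in 17 genes. Of the 59, 19 had at least 1 library without the included form, which was set to 0 there, and 30 had an unadjusted limma p under 0.05. Of the 18, 5 had such a library and 4 had such a p. Replicates of the 372 microexons differed too, as the mean distance between the inclusion of 2 libraries was 11.9 points within shControl and 12.5 within shNeuroD1, against 14.8 between libraries of different groups. For the longer exons these distances were 8.29, 8.27 and 8.49 points.

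**Figure D2:**
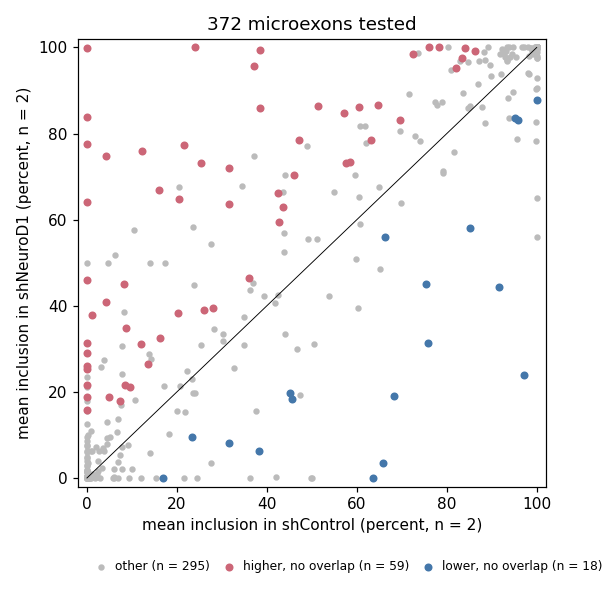
Mean inclusion of each of the 372 tested microexons in shControl (horizontal axis, percent, n = 2) against shNeuroD1 (vertical axis, percent, n = 2), with the line of equal values. The 59 microexons whose groups did not overlap with a difference of at least 10 points upward lie above the line and the 18 downward below it.

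The share on the higher side was over 10% in each class of length up to 30 bases. It was 4 of 34 at 3 to 15 bases (11.8%), 20 of 94 at 16 to 21 bases (21.3%), 17 of 117 at 22 to 26 bases (14.5%) and 18 of 127 at 27 to 30 bases (14.2%). From 31 to 60 bases it was 110 of 1892 (5.81%), and in the longer classes it was 4.56% to 5.68%. The share on the lower side was 0 of 34, 3 of 94 (3.19%), 6 of 117 (5.13%) and 9 of 127 (7.09%) in the microexon classes and 3.78% to 4.37% in the longer ones.

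**Figure D3:**
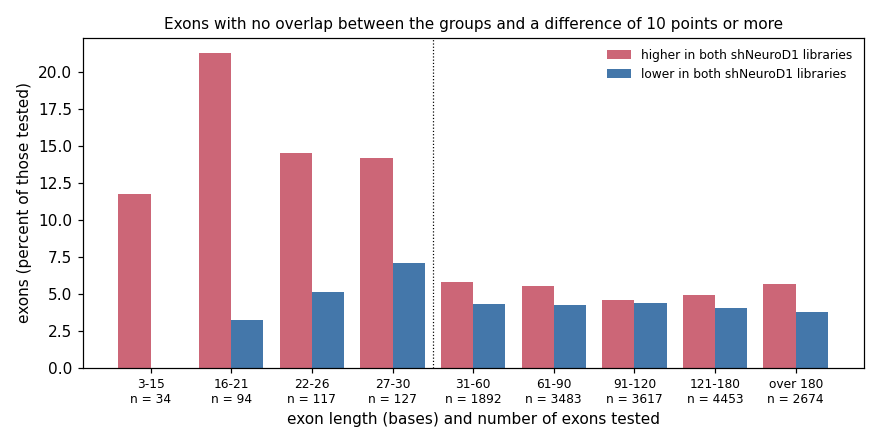
Percentage of tested exons (vertical axis) with no overlap between the groups and a difference of at least 10 percentage points, higher (red) or lower (blue) in both shNeuroD1 libraries, by exon length in bases (horizontal axis, with the number tested). Left of the dotted line the red bars stand at 11.8% to 21.3%, and right of it at 4.56% to 5.81%.

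Microexons that kept the reading frame made up most of the higher set. 46 of the 59 were coding with a length divisible by 3, out of 225 such microexons tested (20.4%). Coding microexons of other lengths were higher in 4 of 52 (7.69%), and those not wholly coding in 9 of 95 (9.47%). Among longer coding exons the shares were 5.19% with a length divisible by 3 and 3.57% without. Of the 18 lower microexons, 11 were coding and divisible by 3. Exons near 0 or 100% have less room to differ, so the shares were also taken among exons with a mean inclusion over all 4 libraries of 10% to 90%. There, 54 of 171 microexons (31.6%) were higher and 16 (9.36%) lower, against 16.3% and 12.9% of 4146 longer exons.

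The largest difference upward was in RPL41 (ENSG00000229117), which encodes a very small protein of the large ribosomal subunit. Its form of 18 bases (chr12:56117194-56117211, plus strand) had 0 and 0% inclusion in shControl and 99.8 and 99.8% in shNeuroD1 (limma adjusted p = 0.139). This form is not an exon in GENCODE 29 and ends at the same base as the annotated coding exon of 23 bases, the only difference being a start 5 bases further on. The exon of 23 bases was listed at 471 and 401 FPKM in shControl and at 90.7 and 48.3 FPKM in shNeuroD1, where the form of 18 bases was listed at 367 and 355 FPKM. Both forms shared a skipped form of under 1 FPKM in every library, so the inclusion of the exon of 23 bases stayed at 98.9% to 99.8%. The values therefore describe a difference in which start was assigned, while the counts of the gene fell (log2 fold change -0.33, edgeR adjusted p = 3.5e-06).

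NRCAM (ENSG00000091129), a cell adhesion molecule of the L1 family, had a coding exon of 30 bases (chr7:108191254-108191283, minus strand). It was included at 8.46 and 0% in shControl and at 78.7 and 71.0% in shNeuroD1 (limma adjusted p = 0.306). The included form was at 0.319 and 0 FPKM in shControl against 3.01 and 2.63 FPKM, and the skipped form at 3.45 and 3.31 FPKM against 0.817 and 1.07 FPKM, so the groups were apart in both. The level of NRCAM did not pass the test (log2 fold change -0.0019, edgeR adjusted p = 0.986).

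ERO1A (ENSG00000197930), an oxidase that forms disulfide bonds in the endoplasmic reticulum, had a coding exon of 12 bases (chr14:52661293-52661304, minus strand). It was included at 0 and 47.9% in shControl and at 100 and 100% in shNeuroD1 (limma adjusted p = 0.376). The shControl libraries lay far apart in the included form, at 0 and 5.74 FPKM against 7.80 and 6.19 FPKM in shNeuroD1. The skipped form was at 6.77 and 6.23 FPKM in shControl and was listed in neither shNeuroD1 library. NPIPA7 was also among the largest differences upward, with a form of 24 bases at 0 and 0% against 68.4 and 86.8% (limma adjusted p = 0.366). NPIPA7 belongs to a family of near-identical copies, its gene count was at most 1.58 CPM, and the form is not an exon in GENCODE 29, so its reads may belong to other copies and the value is uncertain.

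The largest differences downward were in GPATCH8, CLSTN1, SLC38A10, CLTC and URGCP. GPATCH8 (ENSG00000186566), a protein with a G-patch domain, had a partly coding exon of 18 bases (chr17:44467097-44467114, minus strand). Of this exon 99.999 and 94.5% was included in shControl and 13.7 and 34.3% in shNeuroD1 (limma adjusted p = 0.306), with an included form at 20.7 and 23.2 against 2.12 and 5.50 FPKM. The groups were far apart although the shNeuroD1 libraries differed from each other by over 20 points.

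CLSTN1 (ENSG00000171603), a transmembrane protein that links cargo vesicles to kinesin, had a coding exon of 30 bases (chr1:9756481-9756510, minus strand). Its inclusion was 63.4 and 63.8% in shControl against 0.00554 and 0% in shNeuroD1 (limma adjusted p = 0.302). Replicates lay within 1 point of each other in both groups. The skipped form was listed at 3.61 and 1.504 FPKM in shControl and at 12.7 and 11.6 FPKM in shNeuroD1, and the gene's counts did not pass the test (log2 fold change 0.05, edgeR adjusted p = 0.467).

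SLC38A10 (ENSG00000157637), of a family of amino acid transporters, had a coding exon of 24 bases (chr17:81250070-81250093, minus strand) at 69.6 and 62.0% in shControl and 2.35 and 4.41% in shNeuroD1 (limma adjusted p = 0.487). CLTC (ENSG00000141367), the clathrin heavy chain, was the most abundant of these hosts, with a mean of 71.0 FPKM over both forms. Its coding exon of 21 bases (chr17:59687001-59687021, plus strand) was at 54.7 and 81.6% in shControl and 14.6 and 23.5% in shNeuroD1 (limma adjusted p = 0.375). URGCP entered through 1 library: its exon of 22 bases was at 91.1 and 92.1% in shControl and at 88.9 and 0% in shNeuroD1 (limma adjusted p = 0.716), and without shNeuroD1 replicate 2 the difference was -2.74 points. The 22 bases are part of another listed form of 27 bases, which was at 82.1 and 88.1% against 59.8 and 56.3%.

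**Figure D4:**
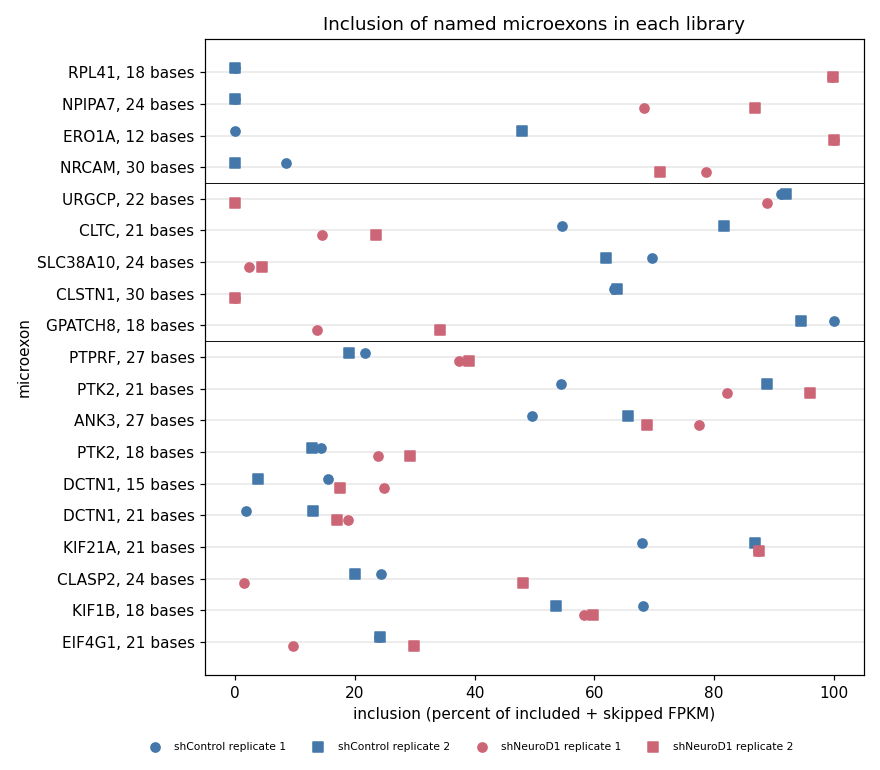
Inclusion (horizontal axis, percent of included plus skipped FPKM) of 19 named microexons (vertical axis, gene and length), with 1 point for each library, shControl in blue and shNeuroD1 in red, circles for replicate 1 and squares for replicate 2. The top 4 are among the 5 largest differences upward, the next 5 the largest downward, of which URGCP has 1 shNeuroD1 library beside the shControl ones, and the lowest 10 are the most abundant microexons of known neural hosts.

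Hosts known for neural microexons were described as a list of 79 genes written from general knowledge. 29 of the 79 had at least 1 microexon here, 43 in all, and 37 were tested. 10 of the 37 (27.03%) were higher without overlap and 1 (2.70%) was lower, against 14.6% and 5.07% of the microexons in other genes, and the median difference was 2.63 points. By role, the higher ones were 6 of 16 in cytoskeletal and motor genes (ANK2, ANK3, CLASP1, MACF1 and a pair in DCTN1), 2 of 6 in adhesion molecules and receptor phosphatases (NRCAM and PTPRF), 1 of 4 in kinases and signalling (PTK2), 1 of 5 in nuclear and RNA-binding proteins (MEF2D) and 0 of 6 in traffic and synapse genes, where PPFIA1 was lower. Of the 178 longer exons tested in the listed hosts, 15 (8.43%) were higher and 11 (6.18%) lower. Among all longer exons tested the shares were 5.20% and 4.15%.

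The 10 most abundant microexons of this list with both forms in every library were chosen without regard to their difference. Their differences were smaller than the largest ones, which were picked by size, so this comparison says nothing about known neural hosts. KIF21A, a kinesin whose exon of 21 bases (chr12:39330242-39330262, minus strand) was the most abundant, had 68.0 and 86.9% inclusion in shControl and 87.3 and 87.5% in shNeuroD1 (limma adjusted p = 0.664). The difference of 9.997 points is smaller than the distance between the shControl libraries. DCTN1 had 2 of the 10: its exon of 15 bases (chr2:74363614-74363628, minus strand) was at 15.5 and 3.80% in shControl and 24.9 and 17.5% in shNeuroD1 (limma adjusted p = 0.586). Its exon of 21 bases (chr2:74376742-74376762) was at 1.82 and 13.0% against 18.9 and 17.1% (limma adjusted p = 0.582), and neither exon overlapped between the groups.

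PTPRF, the receptor tyrosine phosphatase LAR, had the closest replicates among those of the 10 without overlap. Its exon of 27 bases (chr1:43602071-43602097, plus strand) was at 21.6 and 19.0% in shControl and 37.4 and 39.0% in shNeuroD1, a difference of 17.9 points that exceeded the distance within either group (limma adjusted p = 0.346). The counts of PTPRF itself were lower in shNeuroD1, at 111 and 105 against 159 and 159 CPM (log2 fold change -0.56, edgeR adjusted p = 1.5e-11). ANK3, the membrane-cytoskeleton adaptor ankyrin-G, had an exon of 27 bases (chr10:60082150-60082176, minus strand) at 49.6 and 65.6% in shControl and 77.5 and 68.8% in shNeuroD1 (limma adjusted p = 0.552). Without shControl replicate 1 the difference was 7.54 points for ANK3 and 4.97 for the DCTN1 exon of 21 bases. It was then 0.579 for KIF21A and 0.150 for the PTK2 exon of 21 bases. Without shControl replicate 2 it was 5.70 points for the DCTN1 exon of 15 bases.

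PTK2, the focal adhesion kinase, had an exon of 18 bases at 14.3 and 12.9% against 23.8 and 29.2% (limma adjusted p = 0.450), with no overlap. Its exon of 21 bases was at 54.5 and 88.9% against 82.1 and 96.0% (limma adjusted p = 0.670), with overlap. The remaining ones overlapped as well. KIF1B, another kinesin, had an exon of 18 bases at 68.1 and 53.5% against 58.3 and 59.8%. EIF4G1, a scaffold of translation initiation, had one of 21 bases at 24.0 and 24.2% against 9.71 and 29.9%, and CLASP2, which binds growing microtubule ends, one of 24 bases at 24.4 and 19.97% against 1.53 and 48.1%. For EIF4G1 and CLASP2 the spread between the shNeuroD1 libraries was larger than the difference between the groups. The direction of all 3 depended on 1 library.

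Further microexons were chosen after their values were seen. MPP3, a membrane-associated guanylate kinase, had an exon of 21 bases (chr17:43816677-43816697, minus strand) at 32.8 and 44.1% in shControl and 99.9 and 99.0% in shNeuroD1 (limma adjusted p = 0.303). MACF1, a crosslinker of microtubules and actin, had one of 18 bases (chr1:39465095-39465112, plus strand) at 49.3 and 27.5% against 88.8 and 83.0% (limma adjusted p = 0.342). The MACF1 exon of 15 bases differed by only 0.478 points (limma adjusted p = 0.675). MEF2D, a transcription factor of muscle and neurons, had one of 21 bases (chr1:156476494-156476514, minus strand) at 79.5 and 72.7% against 100 and 100% (limma adjusted p = 0.337).

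In ANK2, ankyrin-B, the exon of 24 bases was at 87.4 and 85.2% in shControl and 99.3 and 99.1% in shNeuroD1 (limma adjusted p = 0.306). Another ANK2 exon, of 22 bases, was at 100% in every library. The counts of this gene rose, from 118 and 139 to 353 and 375 CPM (log2 fold change 1.502, edgeR adjusted p = 3.5e-21). In CKAP5, a microtubule polymerase, an exon of 24 bases was at 0.337 and 0.311% in shControl and at 11.2 and 8.88% in shNeuroD1 (limma adjusted p = 0.306). NAV1, neuron navigator 1, had an exon of 24 bases at 64.8 and 80.1% against 98.3 and 98.7% (limma adjusted p = 0.337). The exons of 24 bases in ANK2, CKAP5 and NAV1 were higher in both shNeuroD1 libraries, but were picked with their values known. Their direction is therefore no result about exons of this length, and those of 24 bases in SLC38A10 and ACACA were lower in both.

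CERS6, a ceramide synthase, had an exon of 24 bases at 32.8 and 30.3% in shControl and 60.9 and 66.4% in shNeuroD1 (limma adjusted p = 0.332). ARVCF, a catenin of the p120 family, had one of 18 bases at 6.85 and 1.70% against 39.8 and 41.9% (limma adjusted p = 0.390), and the counts of this gene rose as well (log2 fold change 1.22, edgeR adjusted p = 6.3e-16). CEP78, a centrosomal protein, had one of 18 bases at 0.700 and 1.57% against 35.8 and 40.1% (limma adjusted p = 0.313), and DTNB, beta-dystrobrevin, one of 21 bases at 51.96 and 50.96% against 93.8 and 78.9% (limma adjusted p = 0.363). In these 4 the distance between the group means exceeded that within either group.

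Some microexons were listed as included in no shControl library. That of STIM2 (24 bases), a calcium sensor of the endoplasmic reticulum, was at 26.96 and 23.9% in shNeuroD1 (limma adjusted p = 0.313). That of VPS29 (12 bases), a subunit of retromer, was at 40.0 and 22.5% (limma adjusted p = 0.332). In KIF1A, the axonal kinesin, an exon of 27 bases (chr2:240772570-240772596, minus strand) was at 20.8 and 10.8% in shNeuroD1 (limma adjusted p = 0.306). With events that skip several exons added, an alternative chosen after seeing the data, the difference of the KIF1A exon was 8.66 points in place of 15.8, under the limit of 10, and that of VPS29 was 46.9 in place of 31.3. Over all 476 microexons, 22 had an included form in both shNeuroD1 libraries and in no shControl library, and 7 the reverse. Among the 21343 longer exons these numbers were 533 and 452. The included form was listed for 349 and 341 of the 476 microexons with shControl and for 367 and 364 with shNeuroD1. For the 21343 longer exons it was listed for 16701 and 17066 with shControl and for 17010 and 17047 with shNeuroD1. How far the listing limit or transcript assembly enters these numbers was not tested.

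KIF1A had 2 more microexons that are neighbours and share their totals, so they were not separate measurements. The one of 27 bases (chr2:240734719-240734745) was at 37.4 and 25.5% in shControl against 50.9 and 92.9% in shNeuroD1. The one of 24 bases (chr2:240728389-240728412) was at 0 and 50.7% against 20.1 and 41.8%. In the latter the groups overlapped, and its direction depended on 1 library.

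At adjusted p under 0.05 alone, 135 of the 412 hosts tested with edgeR rose (32.8%) and 142 fell (34.5%), against 26.8% and 28.2% of all 17537 genes tested. Of the 412, 24 (5.83%) rose and 18 (4.37%) fell by both thresholds (adjusted p under 0.05, and beyond 1 on the log2 scale), against 8.79% and 5.14% of all genes tested. The median log2 fold change of the hosts was -0.01, against 0.01 for all genes. Of the 57 hosts of higher microexons 3 rose past both thresholds (ANK2, ARVCF and NRXN2) and 1 fell (EGFLAM), and of the 17 hosts of lower microexons none rose and 1 fell (E2F7). Their median log2 fold changes were 0.03 and -0.18.

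The known regulators of microexons changed in level by less than 2-fold and in both directions. SRRM4, the neural activator of microexons, fell from 134 and 151 CPM to 97.0 and 92.5 CPM (log2 fold change -0.59 ± 0.06, edgeR adjusted p = 8.2e-11). SRRM3, its paralogue, rose from 45.7 and 53.9 to 89.1 and 84.9 CPM (0.80 ± 0.07, edgeR adjusted p = 3.9e-12). PTBP1, the repressor of many neural exons, fell from 375 and 383 to 255 and 249 CPM (-0.59 ± 0.04, edgeR adjusted p = 1.5e-13). In none of these did the groups overlap.

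RBFOX2 rose from 380 and 404 to 473 and 498 CPM (log2 fold change 0.31 ± 0.04, edgeR adjusted p = 2.2e-07). PTBP2, the neural paralogue of PTBP1, was at 92.4 and 89.2 CPM in shControl and at 102.7 and 99.95 CPM in shNeuroD1 (0.16 ± 0.05, edgeR adjusted p = 0.0114), a call that was lost with DESeq2 (adjusted p = 0.179), with no filter on low counts (edgeR adjusted p = 0.0598) and without any 1 of the 4 libraries (edgeR adjusted p = 0.0533 to 0.150). Of the 28 regulators in the list, 25 were tested. 8 of them rose and 10 fell at adjusted p under 0.05, against 26.8% and 28.2% of all genes, and 0 lay beyond a log2 fold change of 1 in size. ESRP1, ESRP2 and KHDRBS2 had too few counts to test. What part any of them had in the inclusion values was not tested.

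**Figure D5:**
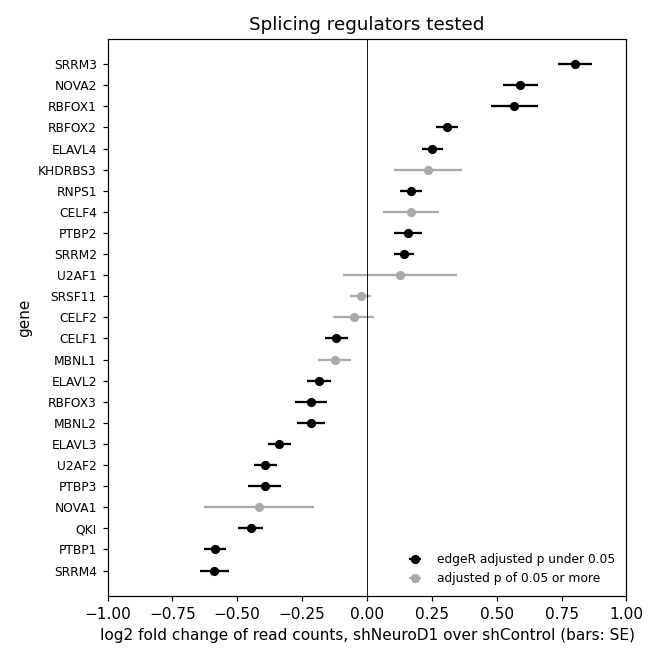
Log2 fold change of read counts, shNeuroD1 over shControl (horizontal axis, with SE), for the 25 splicing regulators tested (vertical axis), in black where the edgeR adjusted p was under 0.05. SRRM3 lies highest at 0.80 and SRRM4 and PTBP1 lowest at -0.59.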

How the data were processed

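RNA was sequenced from 2 shControl and 2 shNeuroD1 libraries. The authors deposited read counts per Ensembl gene, made with HTSeq 0.6.1 after cutadapt 1.9.1 and HISAT2 2.0.1 on hg38 according to the submitters' processing notes, and 4 tables of splicing events with FPKM values, 1 per library. The tool behind the event tables, its transcript assembly and the use of strand are not given in the sources used here, so the read depth behind an FPKM is unknown and genes that overlap are uncertain. The tables list an event only above 0 FPKM. Duplicate rows (6029 to 6252 per library) were dropped, and FPKM was summed over the patterns of an exon.

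Exons were tested with limma 3.58.1 on log2((included + 1)/(skipped + 1)), with a pseudocount of 1 FPKM, where each library listed a form and the mean of both was at least 1 FPKM. A design of 2 against 2 libraries cannot reach a permutation p under 0.05. Counts were tested with edgeR 4.0.16 (TMM, filterByExpr, quasi-likelihood), two-sided with Benjamini-Hochberg adjustment. DESeq2 1.42.0 was an alternative. Scripts were tested on simulated data. No microexon passed the limma call, so those named are the 5 largest differences in each direction without overlap at a mean of at least 2 FPKM, and the 10 most abundant of known neural hosts with both forms in all libraries. 1 of these 5 upward differences and 2 marker genes are not reported here. The members and lists were chosen with earlier results of these data known. Deviations of libraries that share a replicate number were not correlated (r = 0.016 across genes and 0.0050 across exons), so no pairing was used. Coordinates are those of the files, annotated with GENCODE 29.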

Additional observations from a re-analysis of the deposited data

How the results depend on the processing

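No microexon passed the limma call in either direction under most alternatives. limma on the inclusion itself called 1 higher (RPL41) and 1 lower (CLSTN1), and limma with a trend called 1 higher (RPL41). With the replicate block the calls stayed at 0 and 0, with 38 higher and 13 lower at unadjusted p under 0.05 (10.2% and 3.49%, against 4.15% and 3.67% of all exons), and the number of hosts called was 24 and 18. At unadjusted p, limma on the inclusion gave 28 higher and 8 lower (7.53% and 2.15%, against 3.12% and 2.27%), a mean of at least 5 FPKM gave 27 higher (11.3%, against 5.49%), and both forms listed in all libraries gave 18 higher and 5 lower (11.8% and 3.29%, against 4.39% and 3.81%), the last 2 with fewer exons tested (239 and 152 microexons). Leaving out 1 library gave 34 to 50 higher (8.99% to 13.4%, against 5.24% to 5.56%) and 14 to 22 lower (3.76% to 5.90%, against 4.68% to 4.92%), the most lower without shControl replicate 1.

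Groups without overlap numbered 39 higher at a mean of at least 5 FPKM (16.3% of those tested, against 4.67% of all exons), 35 higher and 10 lower with both forms listed (23.0% and 6.58%, against 9.94% and 8.02%), and 36 higher at a difference of at least 20 points (9.68%, against 3.24%). Without 1 library there were 80 to 91 higher (91 without shNeuroD1 replicate 2) and 29 to 41 lower (41 without shControl replicate 2), or 21.4% to 24.4% and 7.77% to 10.8% against 9.56% to 9.94% and 7.90% to 8.35% of all exons, since fewer libraries must not overlap. The median difference fell to between 0.00571 and 0.0934 points without 1 library and was 4.27 with both forms listed. With 1 microexon per gene, chosen after seeing the data, there were 49 higher and 16 lower of 334 (14.7% and 4.79%, against 5.68% and 4.48% with 1 exon per gene over all exons).

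7 named values changed sign. Without 1 library the difference of KIF1B ranged from -9.04 to 5.53 points (reversed without shControl replicate 1), of EIF4G1 from -14.4 to 5.82 (shNeuroD1 replicate 1), of CLASP2 from -20.6 to 25.9 (shNeuroD1 replicate 2), of the 28-base form of NPIPA7 from -17.8 to 70.3 (shControl replicate 2) and of the 24-base exon of KIF1A from -19.8 to 30.95 (shControl replicate 1, and -5.24 without shNeuroD1 replicate 2). With the most abundant pattern only, that KIF1A exon was at -20.4. The cause was not tested. Of 544 recomputed named values, 528 changed neither direction nor side of the threshold. This number is no measure of stability, since alternatives that altered only the fit left the difference in inclusion as it was. No named microexon had passed the threshold in the main fit either. Values that shrank without changing sign are among the 528, such as URGCP (22 bases), from -47.2 to -2.74 points without shNeuroD1 replicate 2. Depth behind each FPKM is unknown, so exons of a few FPKM carry an error that is not given here.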

Other observations

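15 microexons had 6 bases or fewer, and 9 of them were tested. All 9 tested were under 10% inclusion in at least 3 libraries, and 4 of them in all 4, while the other 6 were too sparse to test and 5 of those 6 were listed at 100% in some library. At 3 to 15 bases the median inclusion of the 34 tested was 0.951% in shControl and 6.34% in shNeuroD1. CYTH1 and CYTH2, exchange factors for ARF GTPases, each had a coding exon of 3 bases, at 11.9, 0, 0 and 0% and at 24.1, 0, 0 and 0% in shControl replicates 1 and 2 and shNeuroD1 replicates 1 and 2. APBB1, an adaptor that binds the amyloid precursor protein, had a coding exon of 6 bases at no more than 0.0812% in any library. CLIP1, a protein of microtubule plus ends, had one of 6 bases at no more than 0.0684%. In DCTN2, a subunit of dynactin, an exon of 6 bases was listed as included in both shNeuroD1 libraries, at 4.77 and 53.4%, and in neither shControl library. These were chosen after their values were seen.

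4 more microexons were also chosen after their values were seen. CACNA2D1, an auxiliary calcium channel subunit, had an exon of 21 bases at 75.1 and 63.9% in shControl and 80.8 and 85.4% in shNeuroD1. CACNB1, another such subunit, had one of 20 bases at 57.7 and 63.1% against 80.2 and 91.9%. KCNT2, a potassium channel, had one of 21 bases at 22.6 and 33.6% against 41.4 and 37.7%. Other calcium channel subunits overlapped between the groups, with CACNB3 at 98.1 and 98.6% against 98.6 and 97.2% and CACNA1B at 0 and 0% against 24.999 and 0%. In the opposite direction, an exon of 30 bases in NCAM1, the neural cell adhesion molecule, was at 14.9 and 61.4% in shControl and 12.5 and 0% in shNeuroD1, a difference that is smaller than the distance between the shControl libraries. For CACNA2D1, CACNB1, KCNT2 and NCAM1 the limma adjusted p-values were 0.501, 0.415, 0.574 and 0.552.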
